A study of Homo sapiens with 24 samples.

Results

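The Sprouty and SPRED genes encode intracellular inhibitors of receptor tyrosine kinase signalling. The members followed here were SPRY1, SPRY2, SPRY4, SPRED1 and SPRED2, chosen by symbol through the platform annotation. They made up 5 of the 20046 gene symbols named on the array and were covered by 10 probes, of which 7 passed the filter described below. RNA was prepared from MCF10A, an established line of non-transformed human breast epithelium, and was read on Illumina BeadChip arrays, which report a mean bead brightness for each probe. The cells carried an empty control vector (vector cells), the CYT1 isoform of the receptor tyrosine kinase ERBB4 (CYT1 cells) or its CYT2 isoform (CYT2 cells). All were starved of serum for 48 h and then kept for 2 h with or without NRG1 (neuregulin 1), a ligand of ERBB4. The 6 groups held 2 biological samples each, measured on 2 technical arrays per sample, 24 arrays in all.

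The series title calls the introduced receptors full-length JM-a ERBB4, whereas the sample characteristics write ICD beside CYT1 and CYT2. The promoter that drove the receptor, whether a line was clonal, and the NRG1 dose could not be taken from the labels. The labels do not say that the biological samples came from separate cultures, so the spread between samples may be technical. In bulk RNA, fewer cells of a kind and less RNA per cell cannot be told apart.

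Sprouty and SPRED proteins share a cysteine-rich carboxy-terminal domain and act between activated receptors and the RAS, RAF, MEK and ERK kinase cascade. Transcription of several Sprouty genes is itself raised by ERK activity, which makes them feedback inhibitors whose mRNA is often used as a readout of that cascade. SPRED proteins additionally carry an EVH1 domain, through which they bring the RAS inactivator neurofibromin to the membrane. In epithelia, Sprouty proteins are best known for limiting FGF-driven branching.

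The 250 bases before the annotated starts of the 3 Sprouty genes are shown because these genes rose with NRG1 in CYT2 cells. All 5 members matched the RefSeq promoter table (GRCh38.p14), with 9 annotated starts between them. Capitals mark matches, on either strand, to ETS (CCGGAA), AP-1 (TGANTCA), CRE (TGACGTCA), the CRE core (TGACG, which overlaps the full CRE), the GC box (GGGCGG), TEAD (GGAATG), FOXO (GTAAACA), STAT (TTCNNNGAA) or the CArG box. Each sequence is read 5′ to 3′ on the gene's strand. SPRY4 lies at chr5:142324248-142324497 on the minus strand, and SPRY2, at the outermost of its 3 starts, at chr13:80341127-80341376 on the minus strand. SPRY1 is shown at both of its 2 starts on the plus strand, chr4:123396545-123396794 and chr4:123398136-123398385.
SPRY4: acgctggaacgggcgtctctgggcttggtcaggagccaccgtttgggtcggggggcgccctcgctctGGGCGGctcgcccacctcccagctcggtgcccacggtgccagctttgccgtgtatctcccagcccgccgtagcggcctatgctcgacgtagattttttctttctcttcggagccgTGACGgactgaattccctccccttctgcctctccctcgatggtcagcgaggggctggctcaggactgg
SPRY2: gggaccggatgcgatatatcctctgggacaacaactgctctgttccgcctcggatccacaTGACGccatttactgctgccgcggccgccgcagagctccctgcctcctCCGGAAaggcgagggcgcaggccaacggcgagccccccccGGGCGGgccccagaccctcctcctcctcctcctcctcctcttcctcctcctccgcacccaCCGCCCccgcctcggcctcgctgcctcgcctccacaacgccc
SPRY1 first start: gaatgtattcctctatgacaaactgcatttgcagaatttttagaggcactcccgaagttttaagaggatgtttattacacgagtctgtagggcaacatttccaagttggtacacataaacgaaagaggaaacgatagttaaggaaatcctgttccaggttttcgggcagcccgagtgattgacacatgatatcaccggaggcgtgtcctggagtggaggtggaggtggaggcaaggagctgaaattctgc
SPRY1 second start: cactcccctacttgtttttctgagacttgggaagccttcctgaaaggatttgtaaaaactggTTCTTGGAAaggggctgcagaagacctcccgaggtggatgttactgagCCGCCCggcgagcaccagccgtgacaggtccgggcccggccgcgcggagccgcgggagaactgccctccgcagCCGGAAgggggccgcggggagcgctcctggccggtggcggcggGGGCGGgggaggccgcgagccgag

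The SPRY4 window held a GC box 183 to 178 bases before the start and a CRE core 68 to 64 bases before it. In the SPRY2 window, a CRE core began 190 bases before the start, an ETS match 142 bases before it, and GC boxes 102 and 42 bases before it. The other SPRY2 starts, which are not shown, held no match. No motif searched was found at the first SPRY1 start, whereas the second held an ETS match beginning 67 bases before it, a STAT match beginning 188 bases before it and 2 GC boxes. Over the 9 starts of the 5 members, ETS matched 2, the CRE core 2, the GC box 4 and STAT 1. Among all 35116 promoter windows of the same length, 14.5% held the ETS letters, 21.2% the CRE core, 42.6% the GC box and 6.57% the STAT letters. The AP-1, full CRE, CArG, TEAD and FOXO letters were in none of the 9 member windows, against 6.57%, 1.65%, 1.16%, 11.9% and 2.98% of all windows. These matches describe the letters only.

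Between 18745 and 20370 of 47323 probes per array had a detection p under 0.05. The precision of the comparisons rests on the 2 biological samples per group. The first principal component of all arrays held 17.7% of the variance, and on it the first CYT1 sample with NRG1 lay far from the rest, at -18.4 and -18.2, while its group partner lay at -0.64 on each array. For ERBB4 the array carried a single probe, detected in neither the receptor lines (0 of 16 arrays) nor the vector line (0 of 8), so the introduced receptor could not be checked here. All 5 basal mammary markers with a probe (such as KRT5 and KRT14) and all 4 general epithelial markers were detected on 24 of 24 arrays. Of 5 luminal markers, FOXA1 and GATA3 were detected on 24 arrays, ESR1 on 17, KRT19 on 1 and PGR on 0. Among fibroblast markers DCN was detected on 24 arrays, COL1A1 on 18, COL1A2 on 14, COL3A1 on 2, and PDGFRB and LUM on 0. Immune CD14 was detected on 24 arrays, LYZ on 9, and PTPRC and CD3E on 0. Endothelial PECAM1 was detected on 1 array and VWF, CDH5 and KDR on 0, and of the melanocyte or nerve markers PMEL was detected on 5 and MLANA and S100B on 0. Values below are log2 intensities after background correction and quantile normalization. Differences are given with the standard error of a limma fit over 12 samples, which pools the spread within the 6 groups. That error is moderated, meaning drawn towards the spread typical of all genes (6 residual and 6.31 prior degrees of freedom). For SPRY4 the pooled SD within groups, before this step, was 0.36. Its SD was 0.77 in CYT2 cells without ligand and 0.01 to 0.37 in the other groups. The SPRY4 error in every comparison therefore rests largely on that 1 group. A gene was called at a Benjamini-Hochberg adjusted p under 0.05 over 12357 genes.

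**Figure D1:**
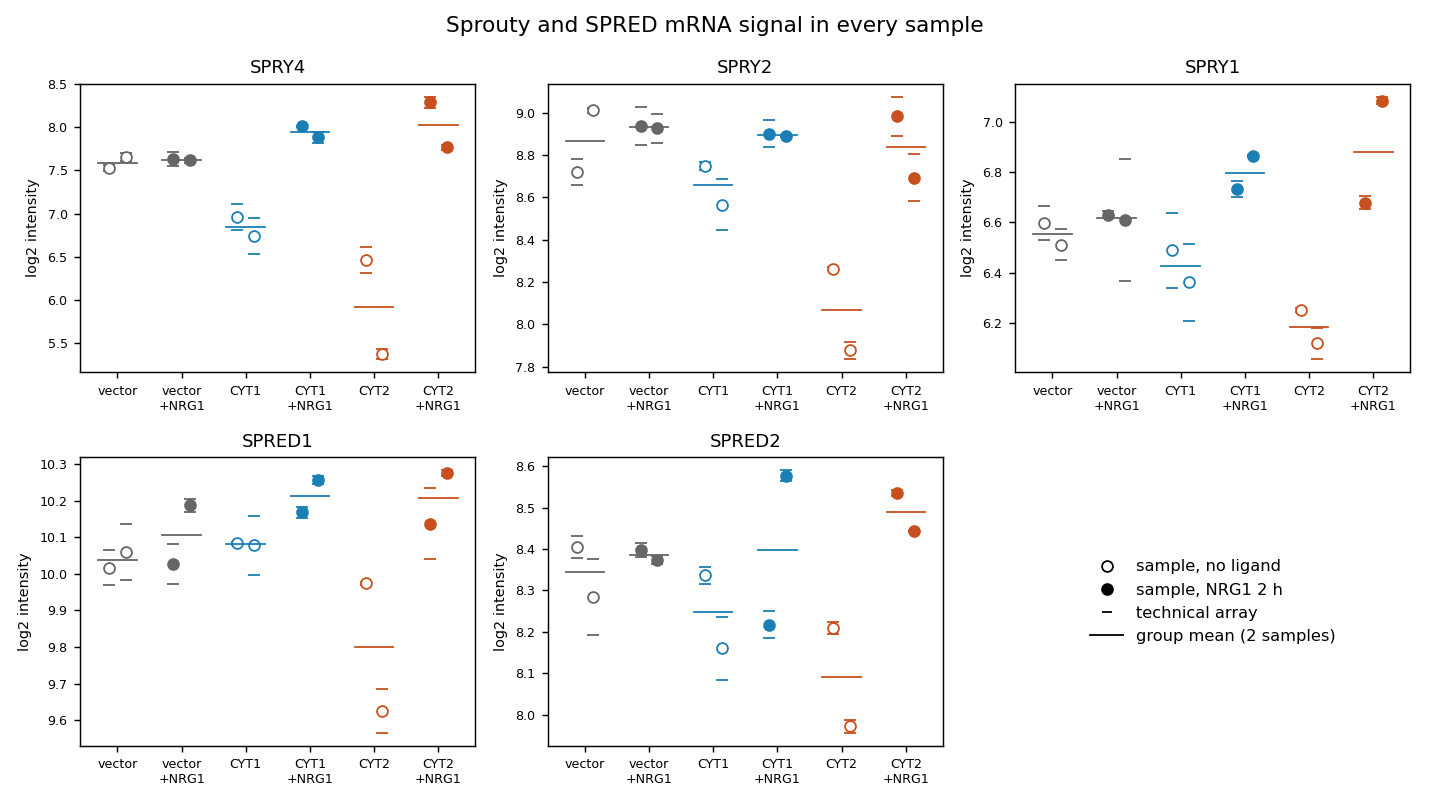
Log2 intensity (y axis) of each member's brightest probe in the 6 groups (x axis). Circles are the biological samples, open without ligand and filled after NRG1, dashes their 2 technical arrays, and lines the group means. CYT2 cells without ligand sit lowest in each panel, with a mean of 5.92 in that of SPRY4.

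NRG1 raised all 3 Sprouty genes in CYT2 cells, SPRY4 the most, and neither SPRED gene passed the test. By this count 3 of 5 members were called higher and 0 lower, where 1.36% of all genes tested were called higher in this comparison. The median difference of the members was 0.69, against -0.02 over all genes. In all 5 members the stimulated samples lay above the unstimulated ones without overlap, as in 21.2% of all genes. SPRY4 rose 4.31-fold, SPRY2 1.70-fold and SPRY1 1.62-fold, each between groups of 2 samples.

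SPRY4 encodes a Sprouty protein that blocks growth factor signalling upstream of ERK. Its signal in CYT2 cells without ligand was 6.46 and 5.38, and with NRG1 it was 8.29 and 7.77. The groups did not overlap, and the 2 unstimulated samples differed from each other by more than those of any other group, with an SD of 0.77. The log2 difference was 2.11 ± 0.26 (95% interval 1.54 to 2.68, limma adjusted p = 0.00195), which ranked SPRY4 number 3 of 12357 genes by size of rise. Mean raw signals were 155 units without ligand and 377 units with it, before background correction. On the uncorrected log2 values of the authors' value table the difference was 1.28 (limma adjusted p = 0.0031), and after quantile normalization without background correction it was 1.16. With only these 2 groups in the fit, the limma adjusted p was 0.0843 for SPRY4 and above that for the other members.

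SPRY2 encodes a Sprouty protein known to bind the adaptor GRB2 and the ubiquitin ligase CBL. It read 8.26 and 7.88 in CYT2 cells without ligand and 8.98 and 8.69 with NRG1, again without overlap. The difference was 0.77 ± 0.15 (limma adjusted p = 0.0194). SPRY1, which restrains RET signalling in kidney development in the mouse, read 6.25 and 6.12 without ligand and 6.68 and 7.08 with it. Both stimulated SPRY1 samples lay above both unstimulated ones, by 0.69 ± 0.13 (limma adjusted p = 0.0160). On the authors' value table the SPRY1 difference was 0.46 and after quantile normalization without background correction 0.34, both called. Among the 12 alternatives other than leaving out a sample, the SPRY1 call was kept in 10, at 0.34 to 0.72. The SPRY2 call was kept in 9 of those 12, and its difference ran from 0.60 to 0.85 over them. SPRY2 was also not called without CYT2 sample 1 with NRG1 (limma adjusted p = 0.201), nor SPRY1 without CYT2 sample 2 with NRG1 (0.161). Neither call was kept without CYT2 sample 2 without ligand, where the limma adjusted p was 0.276 for SPRY2 and 0.229 for SPRY1, while SPRY4 was still called (1.57, adjusted p = 0.0078).

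The SPRED genes lay higher with NRG1 in CYT2 cells in every sample, without passing the threshold. SPRED1, whose loss causes Legius syndrome in humans, read 9.97 and 9.62 without ligand and 10.14 and 10.28 with it. Its difference was 0.41 ± 0.12 (95% interval 0.15 to 0.67, limma adjusted p = 0.146). SPRED2, its close relative, read 8.21 and 7.97 without ligand and 8.54 and 8.44 with it, a difference of 0.40 ± 0.13 (95% interval 0.12 to 0.68, limma adjusted p = 0.206). When the 24 arrays entered singly, blocked by sample, both were called, at limma adjusted p = 0.0184 and 0.0201. Such a fit takes the technical arrays as observations, although each group still held 2 biological samples. SPRED2 was also called on the authors' value table (limma adjusted p = 0.0276). SPRED1 was called in 1 of 24 settings and SPRED2 in 2.

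In CYT1 cells the largest member difference was again that of SPRY4, and no member was called with NRG1 (0 of 5, where 0.0324% of all genes were called higher). SPRY4 read 6.96 and 6.74 without ligand and 8.01 and 7.88 with it. The SDs of these groups were 0.16 and 0.09, whereas the standard error below pools the spread of all 6 groups. The groups did not overlap, and the difference of 1.10 ± 0.26 (95% interval 0.52 to 1.67, 2.14-fold) had a limma adjusted p of 0.304 and an unadjusted p of 0.00125, with rank 3 of 12357 by size of rise. SPRY1 read 6.49 and 6.36 without ligand and 6.73 and 6.86 with it, a difference of 0.37 ± 0.13 (limma adjusted p = 0.520). SPRY2 differed by 0.24 ± 0.15, SPRED1 by 0.13 ± 0.12 and SPRED2 by 0.15 ± 0.13, and in SPRED2 the groups overlapped. Without the CYT1 sample with NRG1 that lay apart, the SPRY4 difference was 1.03 (limma adjusted p = 0.871). SPRY4 was called in CYT1 cells when either CYT2 sample without ligand was left out (limma adjusted p = 0.0416 in both fits) and with the 24 arrays entered singly (0.0179).

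NRG1 in vector cells left the members within 0.07 of their unstimulated level. SPRY4 read 7.53 and 7.65 without ligand and 7.63 and 7.62 with it, a difference of 0.03 ± 0.26 (95% interval -0.54 to 0.60). The other members differed by 0.06 (SPRY1), 0.07 (SPRY2), 0.07 (SPRED1) and 0.04 (SPRED2), and none of the 5 was called. Over all genes 0% were called in this comparison by limma, and 500 of 12357 (4.05%) had an unadjusted p under 0.05. The upper ends of the intervals were 0.60 for SPRY4, 0.39 for SPRY2, 0.34 for SPRY1, 0.33 for SPRED1 and 0.32 for SPRED2. These are the largest rises the intervals leave possible. For SPRY4 the interval is not the spread of vector cells alone, whose SDs were 0.09 without ligand and 0.01 with NRG1. With the same standard error, the larger SPRY4 difference of 1.10 in CYT1 cells was not called either.

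Averaged over CYT1 and CYT2 cells, the effect of NRG1 called the 3 Sprouty genes higher (3 of 5 members), where 2.1% of all genes were called higher. SPRY4 differed by 1.60 ± 0.19 (limma adjusted p = 0.000827; 1.01 on the authors' value table and 0.93 after quantile normalization without background correction), SPRY1 by 0.53 ± 0.09 (0.00681) and SPRY2 by 0.50 ± 0.10 (0.0219). SPRED1 and SPRED2 both differed by 0.27, with limma adjusted p = 0.141 and 0.172. SPRY2 was not called without CYT1 sample 2 or CYT2 sample 2 without ligand, nor without sample 1 of either line with NRG1 (limma adjusted p = 0.108, 0.112, 0.0746 for CYT1 and 0.0953 for CYT2), and SPRED1 was called without CYT2 sample 1 without ligand (0.0446). SPRY2 was also not called without the filter on dim probes (0.0539) or with technical array 2 alone (0.138), and SPRED2 was called on the authors' value table (0.0301). These averages share their samples with the comparisons within each line.

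**Figure D2:**
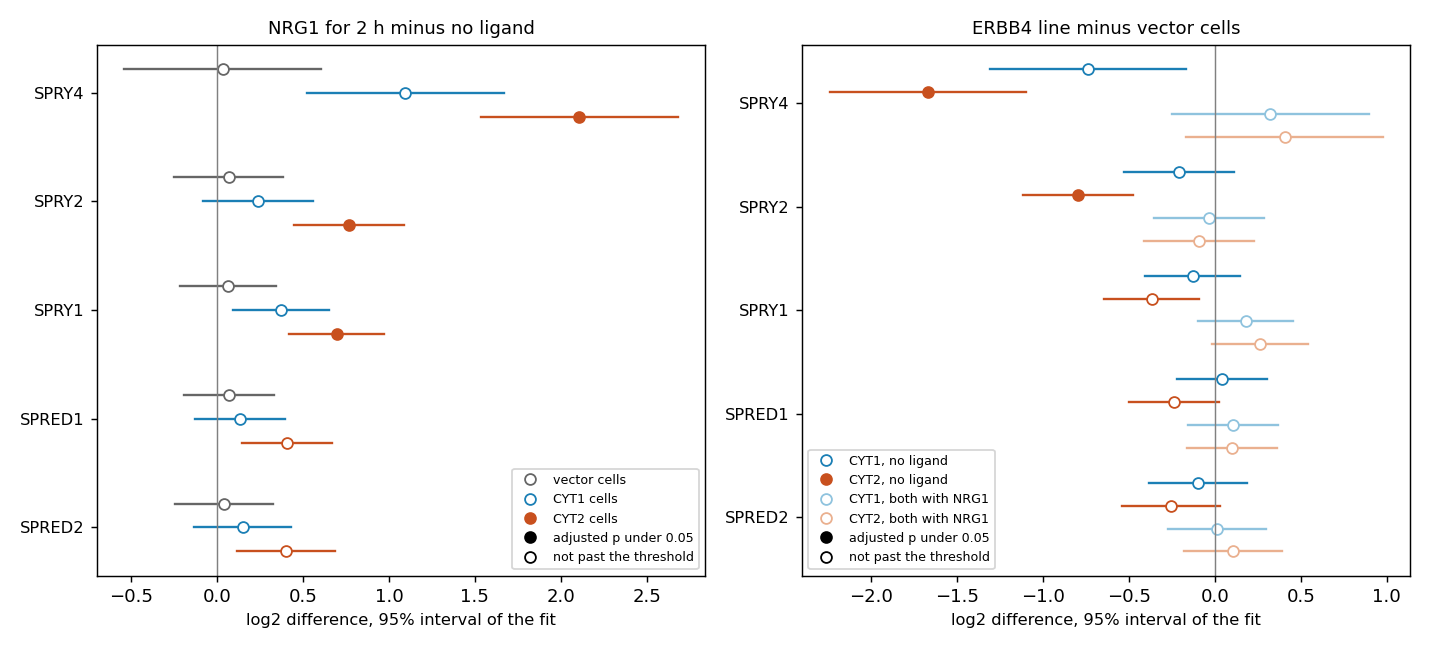
Log2 difference with the 95% interval of the fit (x axis) for each member (y axis), for NRG1 against no ligand in each line (left) and for each ERBB4 line against vector cells (right). Filled circles passed an adjusted p under 0.05. SPRY4 in CYT2 cells lies at 2.11 on the left and at -1.67 on the right.

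The NRG1 effect itself was compared between lines. For SPRY4 it was 2.08 ± 0.37 larger in CYT2 than in vector cells (95% interval 1.27 to 2.88, limma adjusted p = 0.0468), which was 1 of 5 members called, where 0.218% of all genes were called higher. The same difference was 0.70 ± 0.21 for SPRY2 (limma adjusted p = 0.286), 0.63 ± 0.18 for SPRY1 (0.271), 0.36 for SPRED2 and 0.34 for SPRED1. For SPRY4 it was 1.17 on the authors' value table (limma adjusted p = 0.107) and 1.14 after quantile normalization without background correction (0.0407). The SPRY4 call was near the threshold and was kept in 7 of 24 settings tried. Leaving out CYT2 sample 1 without ligand or CYT2 sample 2 with NRG1 kept it, and leaving out any other single sample ended it, at limma adjusted p from 0.0668 to 0.184. When all 23019 probes were tested its adjusted p was 0.0580 (limma).

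Between CYT1 and vector cells, 0 of 5 members differed in their NRG1 effect by the test, where 0% of all genes were called and 734 (5.94%) had an unadjusted p under 0.05. SPRY4 differed by 1.06 ± 0.37 (95% interval 0.25 to 1.87, limma adjusted p = 0.806). CYT1 and CYT2 cells also differed in 0 of 5 members, where 0.00809% of all genes were called in either direction. For SPRY4 the effect in CYT1 cells minus that in CYT2 cells was -1.01 ± 0.37 (95% interval -1.82 to -0.20, unadjusted p = 0.0183 in the limma fit) and was not called after adjustment. SPRY2 differed by -0.53 ± 0.21 and SPRY1 by -0.32 ± 0.18 in the same direction, with neither called.

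Before ligand was added, SPRY4 and SPRY2 were lower in CYT2 cells than in vector cells. This comparison uses the same unstimulated CYT2 samples as the effect of NRG1 in CYT2 cells, so the 2 sets of values are not independent. By the test 2 of 5 members were lower, where 1.36% of all genes were called lower. All 5 lay below the vector samples without overlap, as did 19% of all genes. SPRY4 read 7.53 and 7.65 in vector cells against 6.46 and 5.38 in CYT2 cells, a difference of -1.67 ± 0.26 (3.18-fold lower, limma adjusted p = 0.00925). SPRY2 read 8.72 and 9.01 in vector cells against 8.26 and 7.88, a difference of -0.80 ± 0.15 (1.74-fold lower, limma adjusted p = 0.0199). Neither gene had overlapping groups. On the authors' value table the SPRY4 difference was -0.82 and was not called (limma adjusted p = 0.0634), nor was SPRY2 (0.154). Without vector sample 2 neither gene was called, with limma adjusted p = 0.0660 for SPRY4 and 0.0948 for SPRY2, and without CYT2 sample 2 SPRY4 read -1.13 and SPRY2 -0.60, the latter not called (0.127).

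SPRY1 was 0.37 ± 0.13 lower in CYT2 than in vector cells (limma adjusted p = 0.169), with 6.60 and 6.51 in vector cells against 6.25 and 6.12. SPRED1 differed by -0.24 ± 0.12 and SPRED2 by -0.25 ± 0.13, both below their vector samples and neither called. All 5 members had their lowest value of the 12 samples in CYT2 sample 2 without ligand. That sample lay at 17.1 and 17.5 on the first principal component, above the other 11 samples.

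On its main probe, SPRY4 in CYT1 cells without ligand lay between the other lines. It read 6.96 and 6.74, below both vector samples, with a difference of -0.74 ± 0.26 (95% interval -1.31 to -0.17, limma adjusted p = 0.244). None of the 5 members was called between CYT1 and vector cells without ligand, where 0.194% of all genes were called. SPRY2 differed by -0.21 ± 0.15, SPRY1 by -0.13 ± 0.13, SPRED2 by -0.10 ± 0.13 and SPRED1 by 0.04 ± 0.12. The sign turned for SPRY1 (0.04) and SPRED2 (0.08) on the authors' value table, and for SPRY1 (0.09) and SPRED1 (-0.06) with technical array 1 alone. CYT1 minus CYT2 cells without ligand gave 0.93 ± 0.26 for SPRY4 (limma adjusted p = 0.798) and 0.59 ± 0.15 for SPRY2 (0.774), and limma called no gene of 12357 there (0%), with 682 (5.52%) at an unadjusted p under 0.05.

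With NRG1 no member was called between the 3 lines. SPRY4 was 0.41 ± 0.26 higher in CYT2 than in vector cells (95% interval -0.17 to 0.98, limma adjusted p = 0.727) and 0.32 ± 0.26 higher in CYT1 than in vector cells (0.700). SPRY1 was 0.26 ± 0.13 and 0.18 ± 0.13 higher in the same comparisons. SPRY2 read -0.09 ± 0.15 and -0.04 ± 0.15. Of the 5 members 0 were called in CYT2 against vector cells (0.397% of all genes), 0 in CYT1 against vector cells (0.0162%) and 0 in CYT1 against CYT2 cells with NRG1 (0.00809%).

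The order of the 6 group means of SPRY4 was CYT2 with NRG1 (8.03), CYT1 with NRG1 (7.95), vector with NRG1 (7.62), vector (7.59), CYT1 (6.85) and CYT2 (5.92). In that order the samples of the top pair overlapped, as did those of the vector pair, and the other neighbours did not. SPRY2 was ordered vector with NRG1 (8.93), CYT1 with NRG1 (8.90), vector (8.87), CYT2 with NRG1 (8.84), CYT1 (8.66) and CYT2 (8.07). Among the SPRY2 groups from CYT1 with NRG1 down to CYT1 without ligand each overlapped its neighbour, and the samples of CYT2 cells lay below them all. SPRY1 was ordered CYT2 with NRG1 (6.88), CYT1 with NRG1 (6.80), vector with NRG1 (6.62), vector (6.55), CYT1 (6.43) and CYT2 (6.19), with overlap only in the top pair. SPRED1 means ran from 10.21 in CYT1 with NRG1 to 9.80 in CYT2, and SPRED2 means from 8.49 in CYT2 with NRG1 to 8.09 in CYT2, where all neighbouring groups overlapped. Across the 12 samples, values of SPRY4 spanned 2.91, more than 99.96% of genes, those of SPRY2 1.13 (98.2%), of SPRY1 0.96 (96.4%), of SPRED1 0.65 (81.2%) and of SPRED2 0.61 (75.0%).

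The values above came from ILMN_2086105 for SPRY4, ILMN_2089329 for SPRY2, ILMN_2329914 for SPRY1, ILMN_1804277 for SPRED1 and ILMN_1791232 for SPRED2. A second probe passed the filter for SPRY4 and for SPRY1. The second SPRY1 probe (ILMN_1691860) was detected on 24 of 24 arrays and read 5.50 and 5.31 in CYT2 cells without ligand and 5.95 and 6.06 with NRG1. Its difference of 0.60 ± 0.13 was called when all 23019 probes were tested (limma adjusted p = 0.0496), where 0.821% of probes were called higher. The second SPRY4 probe (ILMN_1797596) was dim, with detection on 18 of 24 arrays, and read 5.20 and 4.80 in CYT2 cells without ligand and 6.04 and 5.54 with NRG1. Its difference was 0.79 ± 0.21 in CYT2 cells (limma adjusted p = 0.129) and 0.67 ± 0.21 in CYT1 cells (0.574), neither called. Averaged over CYT1 and CYT2 cells it was 0.73 ± 0.15 and was called (limma adjusted p = 0.0262), where 1.31% of probes were called higher. In CYT2 minus vector cells without ligand the second SPRY4 probe read -0.31 ± 0.21 and was not called. With NRG1 in both lines it read 0.45 ± 0.21, also not called (limma adjusted p = 0.631). For CYT1 minus CYT2 cells without ligand it read -0.06 ± 0.21, against 0.93 on the main probe. In those groups the second probe was detected on 2 of 4 arrays (CYT1) and 1 of 4 arrays (CYT2). That is too near background to show the order of those lines. Another SPRY1 probe (ILMN_1769280) was detected on 2 of 24 arrays, and 2 further SPRY4 probes on 0 (ILMN_1688811) and 1 (ILMN_1741168), so these 3 were not tested.

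**Figure D3:**
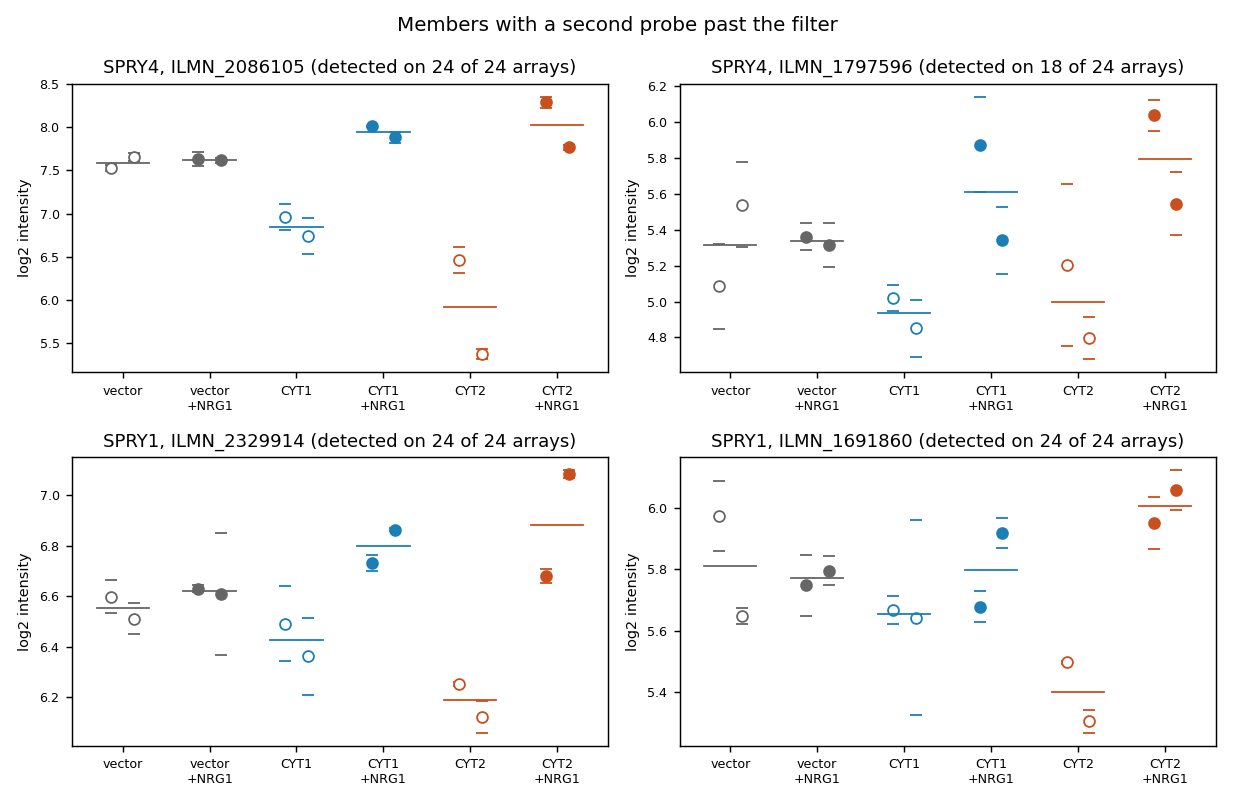
Log2 intensity (y axis) of the tested probes of SPRY4 (top) and SPRY1 (bottom) in the 6 groups (x axis), open circles without ligand, filled after NRG1, dashes technical arrays and lines group means. In CYT2 cells the second SPRY4 probe reads 5.20 and 4.80 without ligand and 6.04 and 5.54 with NRG1.

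Across the 12 samples the members varied together, as a description of samples that share the line and ligand groups. Pearson r ran from 0.67 for SPRY1 with SPRY2 to 0.93 for SPRY2 with SPRY4, and Spearman rho from 0.34 for SPRY2 with SPRED1 to 0.89 for SPRY1 with SPRY4. Over the 10 samples other than CYT2 cells without ligand, r ran from 0.03 for SPRY2 with SPRED1 to 0.78 for SPRY1 with SPRED1, and was 0.71 for SPRY2 with SPRY4.

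The genes most like each member by r over the 12 samples were named for description. For SPRY4 they were TRIB1 (0.99), a pseudokinase that also bears on the MEK and ERK cascade, followed by ITPRIP, OSGIN2, HAS3 and KLF6, the last at 0.97. The profile of SPRY2 was nearest to IL36G (0.98), an epithelial cytokine, with GRAMD2B, IRF2BPL, SLC25A25 and ZNF365 next (0.96 for the last). SPRY1 lay nearest to SLC20A1, a phosphate transporter (0.94), and PKP2, CD59, ADORA2B and BCAR3 followed, down to 0.92. SPRED1 was most like ZNF697 (0.92), ARHGEF3, EIF2B2, ENC1 and SNORA80A (0.89), and SPRED2 most like IRF2BP2 (0.97), FHDC1, CDC42EP2, FOXD1 and CD59 (0.91).

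Other feedback inhibitors of the pathway formed a list of 20 genes, all measured. This list and those below were chosen with earlier results of these data known. With NRG1 in CYT2 cells 5 were called higher and 0 lower, where 1.36% of all genes were called higher. The list's median difference was 0.22, against -0.02 over all genes. TRIB1 rose by 1.86, DUSP6, a cytoplasmic phosphatase of ERK, by 1.66, ERRFI1, an inhibitor of the EGF receptor family, by 1.48 and DUSP4, a nuclear phosphatase, by 1.33. SPRY4 had a difference of 2.11 in the same fit, SPRY2 0.77 and SPRY1 0.69. Second probes, read in the fit over all kept probes, gave 1.99 for DUSP6 and 0.33 for DUSP4. In CYT1 cells 0 of the 20 were called by limma, where 0.0324% of all genes were called higher. In vector cells 0 were called, with 1 at an unadjusted p under 0.05. Over all genes in vector cells, 4.05% had an unadjusted p under 0.05. Without ligand, CYT2 against vector cells had 3 of 20 lower, TRIB1 by 1.23, DUSP5 by 1.20 and ERRFI1 by 1.10 on the log2 scale, and 0 higher. The share of all genes called lower there was 1.36%. In the NRG1 effect of CYT2 minus vector cells, DUSP5 was called (1.40), as SPRY4 was (2.08). Of all genes, 0.218% were called higher in that comparison.

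**Figure D4:**
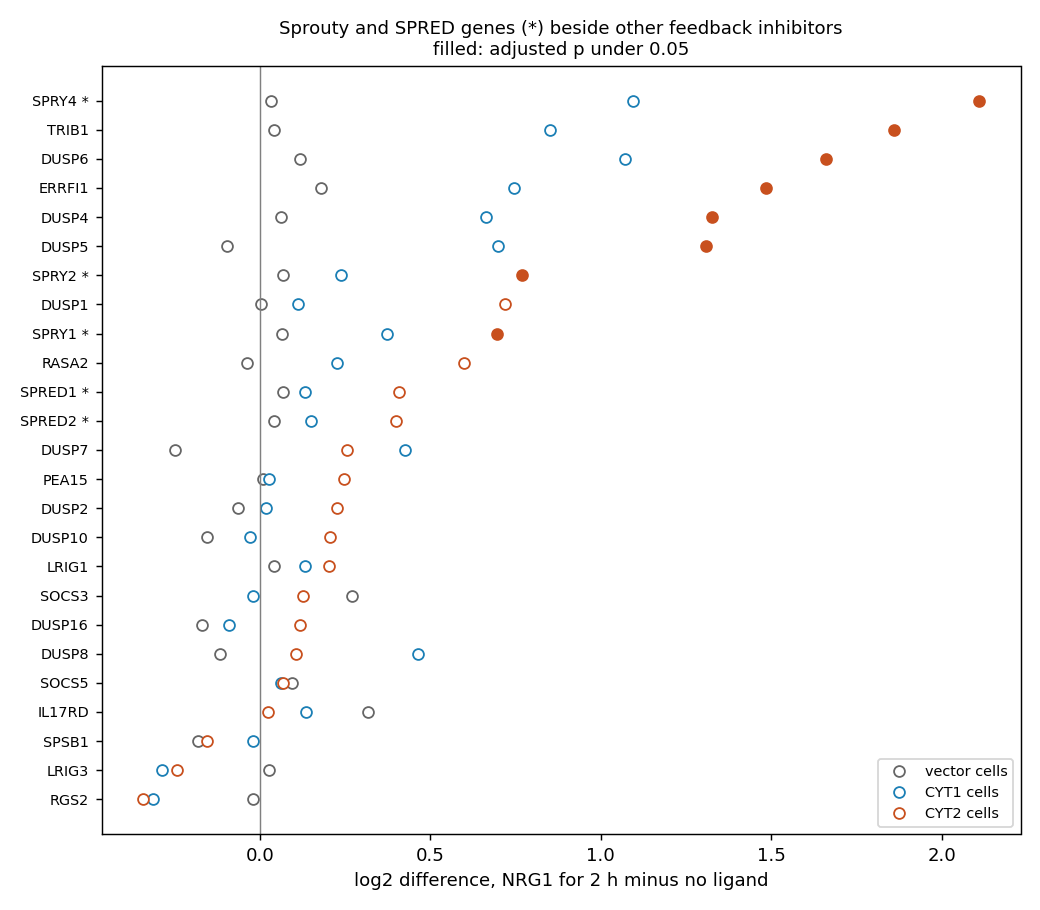
Log2 difference of NRG1 for 2 h against no ligand (x axis) in vector, CYT1 and CYT2 cells for the Sprouty and SPRED genes (starred) and 20 other feedback inhibitors (y axis), ordered by CYT2 cells. Filled circles passed an adjusted p under 0.05 in CYT2 cells. SPRY4 lies at 2.11 and TRIB1 at 1.86.

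Among the 20 listed output genes of ERK, 19 were measured. With NRG1 in CYT2 cells 7 were called higher and 0 lower, with a median of 0.64, where 1.36% of all genes were called higher. FOSL1, an AP-1 subunit, rose by 1.38, KLF6 by 1.31, PHLDA1 by 1.25 and PLAUR, the urokinase receptor, by 1.11. Other probes past the filter read 0.74 for PHLDA1, and 0.30 and 1.07 for PLAUR. Before ligand, 8 of the 19 were called lower in CYT2 cells against vector cells, with a median of -0.62. Of all genes, 1.36% were called lower there. EGR3 was not detected in CYT2 cells without ligand, and its signal there was at least 2.90-fold lower than in vector cells (limma adjusted p = 0.0285). The log2 differences were -1.29 for KLF6, -1.27 for FOSL1 and -1.23 for PLAUR. The other PLAUR probes read -1.17 and -0.10. The NRG1 effect of CYT2 minus vector cells was called for FOSL1 (1.71), KLF6 (1.43) and PHLDA1 (1.33), 3 of 19. Of all genes, 0.218% were called higher in that comparison.

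Upstream of the Sprouty proteins, 9 of 14 listed receptors and ligands were measured. With NRG1 in CYT2 cells HBEGF (1.86), TGFA (1.29), EREG (0.91) and the NRG1 transcript (0.62) were called higher, 4 of 9, and 0 lower. Over all genes, 1.36% were called higher there. The NRG1 gene had 2 other probes past the filter, at 0.06 and 0.39, and TGFA had 1, at 1.21. HBEGF, TGFA and EREG are ligands of the EGF receptor. In CYT1 cells TGFA alone of the 9 was called (0.77), where 0.0324% of all genes were called higher. In the absence of ligand, 2 of 9 were called lower in CYT2 cells against vector cells, HBEGF (-1.94) and TGFA (-0.87). The share of all genes called lower there was 1.36%. The receptors EGFR (0.02), ERBB2 (-0.16) and ERBB3 (-0.40) were not called with NRG1 in CYT2 cells. The other probe past the filter read -0.008 for ERBB3 and -0.07 for EGFR.

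Of the cascade that Sprouty and SPRED proteins restrain, 12 of 20 listed genes were measured, and none was called with NRG1 in CYT2 cells by limma. The median of this list was -0.08, against -0.02 over all genes. Without ligand, GAB2, a docking protein, was lower in CYT2 cells by the vector comparison (-0.56), 1 of the 12. Of all genes, 1.36% were called lower there. GAB2 was detected on 1 of 4 arrays in CYT2 cells and 4 of 4 in vector cells, so the size rests on signal near background. Of 17 listed binding partners and regulators of these proteins, 13 were measured and 0 were called in either comparison. From the list of candidate transcription factors and microRNA hosts for Sprouty control, 8 of 9 were measured. Of these, 0 were called in either comparison. ETS1 was called when NRG1 was averaged over CYT1 and CYT2 cells (0.42), where 2.1% of all genes were called higher.

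On the AKT and FOXO side, 12 of 14 listed genes were measured. With NRG1 in CYT2 cells 5 were lower and 1 higher, with a median of -0.46. Over all 12357 genes, 204 were called there in either direction, 168 of them higher. FBXO32, a ubiquitin ligase subunit induced by FOXO factors, differed by -1.36, TXNIP by -0.83, SESN2 by -0.82 and PDK4 by -0.81. The second FBXO32 probe read -0.60. IRS1, named after its value was seen, was the single gene higher (0.48). SESN1, a stress-responsive sestrin, was 0.53 higher in CYT2 cells against vector cells before ligand, 1 of 12. Over all genes, 239 were called in that comparison in either direction, 168 of them lower. SPRY3 and SPRED3, the remaining relatives of the members, were covered by 3 probes, and these were detected on 0 to 1 of 24 arrays, so neither was tested.

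The summed signal of the luminal markers moved with the CYT2 comparisons, though the 3 measured markers did not move together. The sum was taken on unlogged intensities, so FOXA1 weighed most in it. FOXA1 group means were 7.38 to 8.43 on the log2 scale, against at most 6.33 for GATA3 and 5.26 for ESR1. PGR and KRT19, detected on 0 and 1 arrays, added signal near background. The summed luminal signal of the 5 markers was 319 to 336 in CYT2 cells without ligand, 416 to 518 with NRG1, and 438 to 493 in vector cells without ligand. FOXA1 was called in both comparisons (1.03 with NRG1 in CYT2 cells, -0.93 in CYT2 minus vector cells), GATA3 fell with NRG1 by 0.86 on the log2 scale, and ESR1 was called in neither. The median of these 3 was -0.03 with NRG1 in CYT2 cells and -0.11 in CYT2 minus vector cells. Their part in the Sprouty results was not tested. The summed basal signal was 23327 to 25137 in CYT2 cells without ligand, 25355 to 26190 with NRG1 and 25153 to 30539 in vector cells without ligand.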

How the data were processed

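The deposited scanner table holds, per the file headers, a mean bead intensity and a detection p-value for each probe on each array. The authors' value table holds deposited log2 values, which equalled the log2 of those intensities to within 5e-09, with no normalization. The scanner software is not given in the sources used here. Intensities were corrected and quantile normalized with neqc (limma 3.58.1, R 4.3.3, offset 16). Probes with a detection p under 0.05 on at least 4 of 24 arrays were kept (23019 probes, 16620 of them named), and the brightest probe of each gene was used for 12357 genes. Technical arrays were averaged, so that n = 2 per group. All 12 samples entered 1 group-means model (lmFit and eBayes in limma) with 13 contrasts, with Benjamini-Hochberg adjustment of p across every gene tested. Further member probes were tested in a fit over all kept probes. A gene below detection on all arrays of a group is given as at least N-fold lower, taking as its floor the lowest detected signal, or its own where that is higher. The files name no chips or dates, so no batch could be tested.

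Members and gene lists were chosen with earlier results of these data known. The text names all member probes, up to 4 called genes per list and comparison, and the 5 genes most like each member. The ERBB receptors, the undetected relatives and the marker genes were looked up beside these. The fit was tested on simulated data. Alternatives covered normalization, filters, technical arrays, the random block, the samples in the fit, the probe rule, a replicate block and leaving out each sample.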

Additional observations from a re-analysis of the deposited data

Results flagged for a closer look

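The effect of NRG1 on SPRY4 differed between CYT2 and vector cells by 2.08 ± 0.37 on the log2 scale (limma interaction test, adjusted p = 0.0468), which is why it is listed for a closer look. The difference was 1.17 on the authors' value table (adjusted p = 0.107) and 1.14 after quantile normalization without background correction (0.0407). Within the lines the effect was 2.11 in CYT2 cells and 0.03 in vector cells, with n = 2 samples per group. The samples of CYT2 cells with NRG1 lay above those without it, while the vector groups overlapped. The dim second SPRY4 probe gave 0.77 ± 0.30 for the same difference (limma adjusted p = 0.610).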

How the results depend on the processing

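Of 1560 member differences under an alternative, 30 turned sign; 0 of these were called in either fit, and the largest was 0.31 in size. None lay in the 4 comparisons with a called member. The number of members called with NRG1 in CYT2 cells (3) was 1 with technical array 2 alone, 5 with all 24 arrays and a random block, 0 with only the compared groups in the fit, and 1 to 3 when a sample was left out. For CYT2 minus vector cells without ligand (2) it was 0 on the authors' value table, 1 with technical array 2 alone, and 0 to 2 without a sample. NRG1 averaged over CYT1 and CYT2 cells (3) gave 5 with the random block, 4 on the authors' value table, 2 without the filter or with technical array 2 alone, and 2 to 4 without a sample. For NRG1 in CYT1 cells (0) it was 1 with the random block and 0 to 1 without a sample. The difference of the NRG1 effect between CYT2 and vector cells (1) fell to 0 on the authors' value table, without the filter, with technical array 1 or 2 alone, with only the compared groups, with all probes tested and with the median over probes, and was 0 to 1 without a sample. SPRY4 was called with NRG1 in CYT2 cells in 23 of 24 settings, at 1.16 to 2.65. Over all genes, 204 were called with NRG1 in CYT2 cells (28 to 230 without a sample, 9 to 451 otherwise). The same counts were 239 for CYT2 minus vector cells (80 to 359, and 38 to 785), 337 for the averaged effect (150 to 837, and 150 to 701) and 30 for the difference of the effect (1 to 47, and 4 to 175). On the authors' value table the median of all genes with NRG1 in CYT2 cells lay at 0.11 and 99.6% of called genes were higher, against -0.02 and 82.4%. The cause of these shifts was not tested, beyond the fewer samples or arrays that some settings use. The samples were not paired by replicate number in the main fit. Their deviations from the group means correlated between groups at -0.17 to 0.23, with 4 of 15 above 0.1. These correlations cover all pairs of groups together, so they cannot settle whether samples of the same number were paired. With a replicate block the member counts were 3 (NRG1 in CYT2 cells), 2, 3 and 1 in the called comparisons, as without it, and the genes called with NRG1 in CYT2 cells numbered 232, and those for the difference of the effect 46. Sample number and signal near background limit the dim SPRY4 probe.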
